A study of Mus musculus with 13 samples.

Results

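The genes of the G2 and M phases of the cell cycle and of the mitotic spindle were examined in melanoma metastases of the lung, taken from mice that carried different alleles of human apolipoprotein E. The set held 40 named genes, and each was found by its symbol among the 22656 genes of the deposited table. All 40 also passed the minimum mean of 10 normalised counts over the libraries, with means from 59.4 to 4893, so none was lost from the 12403 genes tested. The tumour cells were the B16F10-TR-shApoe derivative of B16F10, a mouse melanoma line, whose name denotes a short hairpin directed at Apoe, and 1 such line was used throughout. They were injected into the tail vein of APOE2 knock-in mice (8 libraries) or APOE3 knock-in mice (5 libraries), lungs were taken on day 15, and living cells with GFP and without the leukocyte antigen CD45 were sorted. Both groups therefore share the cell line, the hairpin, the route and the day, and differ by the allele of the host. The series gives the same numbers of mice as of libraries, and no age or sex of the animals.

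Entry into mitosis is driven by the kinase CDK1 bound to cyclin A or cyclin B, which the phosphatases CDC25B and CDC25C switch on. The spindle then captures chromosomes at their kinetochores, the spindle checkpoint holds the cell until every chromosome is attached, and the anaphase-promoting complex with CDC20 ends mitosis by marking cyclin B and securin for destruction. Most of these genes are transcribed in a wave in late S, G2 and M phase through FOXM1, MYBL2 and the MuvB complex, so their mRNA is widely used as a measure of how many cells in a tumour are dividing. In bulk RNA a smaller number of dividing cells and less mRNA in each dividing cell cannot be told apart.

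Libraries held between 7080308 and 13039989 recovered reads. All 10 melanocyte lineage markers had reads in every library. Together they made up 42640 to 57960 of each 1000000 normalised counts in APOE2 (mean 47970) and 34640 to 45320 in APOE3 (mean 38220). The lowest and highest were in APOE3 replicate 5 and APOE2 replicate 1. Dct, the largest of them, averaged 232520 normalised counts in APOE2 and 150390 in APOE3, and 0 of the 10 were called. Markers of other cells were present at a lower level. The 15 lung epithelium markers summed to 96.2 to 497 of 1000000 in APOE2 and 440.4 to 2596 in APOE3, and 6 of the 11 that could be tested were called lower in APOE2. The 14 endothelial markers summed to 78.2 to 130 in APOE2 (mean 108.6) and 121 to 276 in APOE3 (mean 208). The 13 fibroblast and smooth muscle markers summed to 25.1 to 79.9 and 55.4 to 337, and 2 genes of each of these 2 lists were called lower. For the 20 leukocyte markers in the table the sums were 59.0 to 293 and 252 to 1485, and 2, Lyz2 and Cd74, were called lower. Most of the mean sum in each group was Lyz2, at 1162 normalised counts in APOE2 and 5288 in APOE3. S100a8 averaged 122 and 118, and Ptprc, the gene of CD45, 6.90 and 14.0. The sums are therefore not read as an amount of leukocytes. At 0 in most libraries were 8 markers, Cd3e, Cd4, Cd8a, Cd79a, Ms4a1, Nkg7, Klrb1c and Adgre1. The 5 erythroid markers in the table summed to 4.80 to 22.04 and 2.84 to 26.8, with 0 called. Among the other lists, Epcam, Tagln, Cnn1, Hba-a2 and Alas2 were at 0 in most libraries.

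Across the mitotic set, 1 gene rose in APOE2 hosts and 0 fell. The gene was Nusap1, whose protein bundles spindle microtubules around chromosomes, at 1.96 times its APOE3 level. In limma, with Benjamini-Hochberg adjustment over all 12403 genes and a threshold of 0.05, 51 genes (0.411%) were higher in APOE2 and 47 (0.379%) were lower. For the mitotic set the share called higher was 2.5%, which is 1 gene. At an unadjusted limma p-value under 0.05 there were 5 mitotic genes higher and 0 lower, or 12.5% higher, beside 7.51% higher and 6.71% lower over all genes tested. The 5 were Nusap1, Cdk1, Kif20a, Cenpf and Cenpa.

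Among the 40 genes, 29 had a log2 fold change above 0 and 11 below, or 72.5% above, beside 50.1% of all genes tested. Their median was 0.13, beside 0.00037 over all genes, on the scale of log2(normalised count + 1), APOE2 minus APOE3, which is used for every log2 difference that follows. The range ran from −0.39 for Cdc25c to 0.97 for Nusap1, and 25 genes lay between −0.2 and 0.2. In 10 genes all 8 APOE2 libraries were above the mean log2 value of APOE3, a count that was not made over all genes tested. The 10 include Aurkb, whose median was 304.8 normalised counts in APOE2 and 335.5 in APOE3. In 0 of the 40 did the groups separate fully, where 0.476% of all genes had every APOE2 library above every APOE3 library and 0.508% had the reverse. The median standard error was 0.146. The 95% interval lay inside −1 and 1 for 37 genes and inside −0.5 and 0.5 for 24, so that for the 37 a doubling or a halving was outside the interval.

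With the mean of the lung epithelium markers in the model, 0 of the 40 genes were called, the median log2 fold change of the set was −0.11, and 13 genes were above 0. At an unadjusted limma p under 0.05 that fit had 0 of the 40 in either direction, and it called 0 genes of the whole table. Without APOE3 replicates 2 and 3, a choice made after seeing the data, 22 of the 40 were above 0 and the median was 0.037. In that fit 0 were called and 4 were higher at an unadjusted limma p under 0.05. These libraries had the lowest value of 14 and 8 of the 40 genes, so the smaller median follows in part from the choice. The median was 0.065 without APOE2 replicate 3, 0.071 without APOE3 replicate 3, 0.084 without APOE3 replicate 4 and 0.086 with libraries weighted by their spread. With libraries scaled to equal totals 26 genes were above 0.

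**Figure D1:**
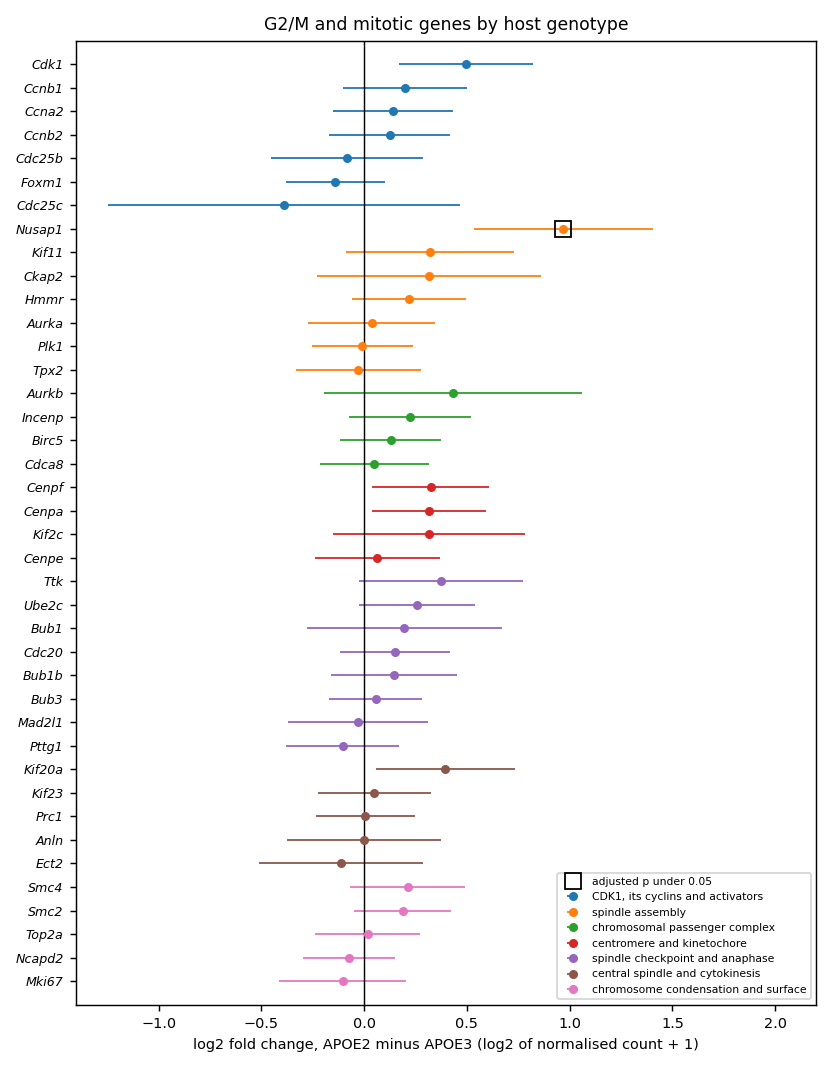
Log2 fold change of each of the 40 genes, APOE2 minus APOE3, with its 95% interval from limma, coloured by role in mitosis. Nusap1, boxed, is the gene past the adjusted threshold, and 29 of the 40 points lie above 0.

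The set also shares letters in its promoters. Genes of this wave are known to carry a CHR element, which the MuvB complex contacts, often a short way downstream of CCAAT boxes bound by NF-Y. The RefSeq promoter table for GRCm38.p6, with 250 bases before and 50 after each start, held 35 promoters for 32 of the 40 genes. Not matched there were Aurkb, Ccna2, Cdc25c, Foxm1, Incenp, Kif20a, Smc4 and Tpx2. The CHR letters TTTGAA or TTCGAA, on either strand, were in 29 of the 35 promoters (82.9%), and in 6316 of the 32851 promoters in the whole table (19.2%). The letters CCAAT, on either strand, were in 29 of the 35 (82.9%), beside 37.4% of all promoters. Both were in 27 (77.1%), beside 7.52% of all. Among promoters of the genes tested here 13.7% had the CHR letters and 5.63% had both motifs. Both strands were searched, and the 2 motifs were counted separately also where they overlap. Of 40 CHR matches, counted in each promoter, 25 began within 50 bases of the start, in 22 genes. Bub3, Ect2 and Prc1 have overlapping promoters, so the same site counts again there. A match is a description of the sequence and not a measured binding site.

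The 250 bases before the start of 4 genes are shown in lower case with CHR and CCAAT letters, on either strand, in capitals. They are the gene that was called (Nusap1), the gene with the next smallest p-value (Cdk1), the activator of the anaphase-promoting complex (Cdc20), and the gene with the most matches (Top2a). They are read 5′ to 3′ along the strand of the gene, at chr2:119618048-119618297 on the + strand, chr10:69352913-69353162 on the − strand, chr4:118437344-118437593 on the − strand and chr11:99024190-99024439 on the − strand of GRCm38.p6.
Nusap1: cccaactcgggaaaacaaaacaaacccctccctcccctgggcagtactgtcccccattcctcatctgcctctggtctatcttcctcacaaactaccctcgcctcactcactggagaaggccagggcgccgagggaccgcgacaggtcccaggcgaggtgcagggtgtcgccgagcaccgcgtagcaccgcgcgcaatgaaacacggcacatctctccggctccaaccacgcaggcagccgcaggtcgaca
Cdk1: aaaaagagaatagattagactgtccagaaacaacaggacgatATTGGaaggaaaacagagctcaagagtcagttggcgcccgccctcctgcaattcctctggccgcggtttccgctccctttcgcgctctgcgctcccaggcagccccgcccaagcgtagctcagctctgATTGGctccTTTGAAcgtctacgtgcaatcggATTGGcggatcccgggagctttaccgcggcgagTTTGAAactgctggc
Cdc20: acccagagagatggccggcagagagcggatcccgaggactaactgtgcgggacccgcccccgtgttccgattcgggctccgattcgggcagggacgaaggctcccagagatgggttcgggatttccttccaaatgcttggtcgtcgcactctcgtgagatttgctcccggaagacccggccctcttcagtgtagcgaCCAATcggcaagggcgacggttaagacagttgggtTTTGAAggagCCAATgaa
Top2a: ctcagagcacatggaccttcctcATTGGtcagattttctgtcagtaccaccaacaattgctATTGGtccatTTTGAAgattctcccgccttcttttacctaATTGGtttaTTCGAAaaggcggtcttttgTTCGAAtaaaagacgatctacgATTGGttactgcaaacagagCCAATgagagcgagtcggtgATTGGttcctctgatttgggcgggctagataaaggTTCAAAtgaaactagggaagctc
In these stretches Cdk1 has 2 CHR and 3 CCAAT matches, Cdc20 has 1 and 2, and Top2a has 4 and 6. Nusap1 has 0 of either, in these 250 bases and in the 50 that follow the start. Birc5, Mad2l1 and Pttg1 likewise have neither motif in the promoter searched. For Mad2l1, Pttg1, Kif2c and Cdca8 that promoter does not cover the start of the gene in GENCODE M21, which was not searched. Top2a, with the most matches of the set, had a log2 difference of 0.017.

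**Figure D2:**
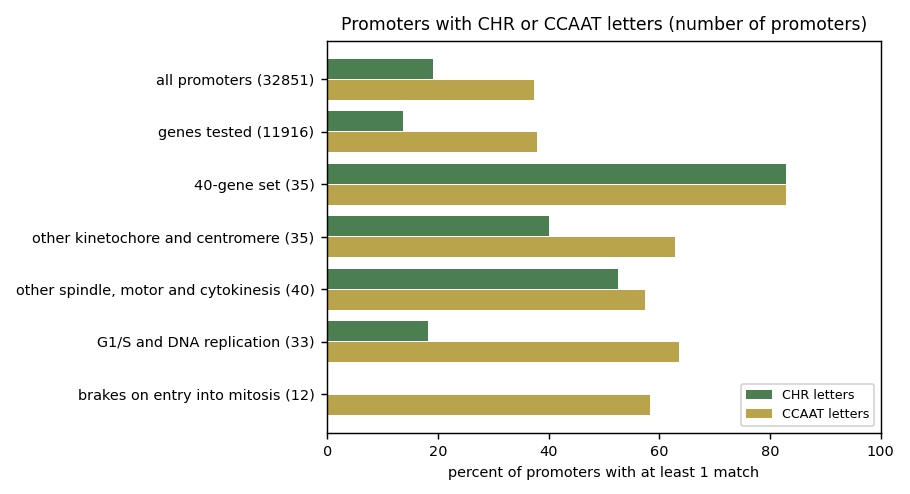
Percent of promoters with at least 1 match to the CHR letters (green) or to CCAAT (yellow), with the number of promoters in brackets. The 40-gene set stands at 82.9% for each, above the 19.2% and 37.4% of all promoters, and the brakes on mitosis have 0 CHR matches in 12 promoters. CCAAT also reaches 62.9% in other kinetochore and centromere genes and 63.6% in G1/S and DNA replication genes.

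Among spindle assembly genes 1 rose, the only called gene of the 40. Nusap1 (ENSMUSG00000027306, chromosome 2, 119618298 to 119651244 on GRCm38) had 552, 429, 360.1, 300.3 and 176 normalised counts in APOE3 replicates 1 to 5. In APOE2 it ran from 479 through a median of 682 to 1025. The groups overlapped only where APOE3 replicate 1 (552) lay above APOE2 replicates 8 (479) and 4 (547), and every APOE2 library was above the APOE3 mean of log2 values. The means were 682 ± 169.8 (SD, n = 8) and 364 ± 141 (SD, n = 5). The log2 difference was 0.97 ± 0.21 (SE; limma adjusted p = 0.0301). It was past the threshold in 6 of the 13 limma fits that left out 1 library, with limma adjusted p-values from 0.00643 to 0.0825. The call was lost without APOE2 replicate 2 (0.0705), 3 (0.0502), 5 (0.0625) or 7 (0.0501), or without APOE3 replicate 3 (0.0689), 4 (0.0825) or 5 (0.0605), these being limma adjusted p-values. The call was also lost with no filter on low values (limma adjusted p = 0.105) and with limma without the trend (adjusted p = 0.174), both at 0.97. It was lost at 1.03 with the replicate block (limma adjusted p = 0.0606) and at 1.11 without APOE3 replicates 2 and 3 (limma adjusted p = 0.0602). In the block fit APOE2 replicates 6 to 8 have no APOE3 library of the same number, so they add nothing to the difference. With the epithelial marker mean in the model its log2 difference was 0.54 (limma adjusted p = 0.746).

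Exons of Nusap1 overlap those of Oip5 on the other strand, away from the last 500 bases of either gene, and the strand setting of the counting is not given in the sources used here. Oip5, which helps load the centromeric histone, averaged 63.1 ± 32.0 normalised counts in APOE2 (SD, n = 8) and 75.5 ± 13.5 in APOE3 (SD, n = 5). Its log2 difference was −0.38 (limma adjusted p = 0.643). The part of the overlap in the Nusap1 count was not tested.

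The other 6 spindle assembly genes were not called. Kif11, the motor that pushes the spindle poles apart, had a log2 difference of 0.32, Ckap2, a microtubule stabiliser, 0.32, and Hmmr, a microtubule-binding partner of Tpx2, 0.22. The 2 kinases were closer to 0. Plk1, the Polo kinase, averaged 1562 ± 209 normalised counts in APOE2 (SD, n = 8) and 1574 ± 222 in APOE3 (SD, n = 5), a log2 difference of −0.0089 ± 0.119 (SE; limma adjusted p = 0.984). Aurka, the spindle pole kinase, had 0.037, and Tpx2, which activates it on microtubules, −0.029. In this group the median of the 7 genes was 0.22, 5 were above 0 and 1 was called.

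**Figure D3:**
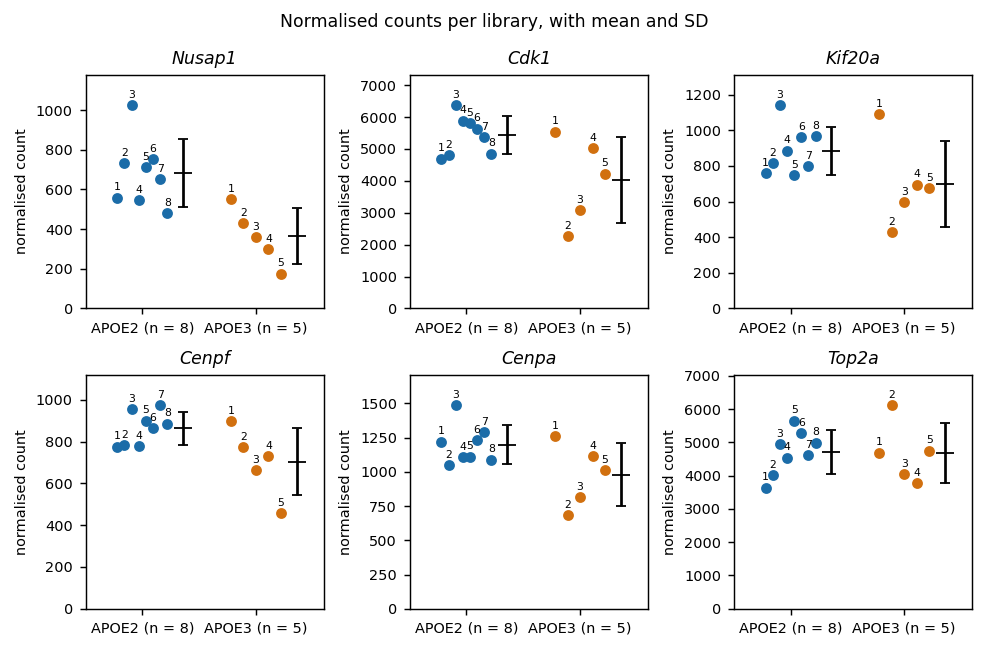
Normalised counts of 6 genes in each library, numbered by replicate, with the mean and SD of each group in black and axes from 0. Nusap1, Cdk1, Kif20a, Cenpf and Cenpa are those with an unadjusted p under 0.05, and Top2a shows groups that cover the same range.

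Of CDK1, its cyclins and its activators 0 were called, and their values lay on both sides of 0. Cdk1 (ENSMUSG00000019942) had 5542, 2269.96, 3089.8, 5035 and 4226 normalised counts in APOE3 replicates 1 to 5, and 4699, 5502 and 6377 as the lowest, median and highest in APOE2. APOE3 replicates 2, 3 and 5 lay below every APOE2 library, and replicates 1 and 4 lay inside the APOE2 range. The log2 difference was 0.49 ± 0.16 (SE), and the limma adjusted p was 0.147. Without APOE3 replicate 1 it was called, at 0.63 (limma adjusted p = 0.0375), and without APOE3 replicate 2 it was 0.31 (limma adjusted p = 0.306). It was 0.14 without APOE3 replicates 2 and 3 and 0.26 with the epithelial covariate. The cyclins that bind CDK1 had smaller values, with 0.20 for Ccnb1, 0.14 for Ccna2 and 0.12 for Ccnb2. The activating phosphatases and the transcription factor lay below 0, with −0.085 for Cdc25b, −0.39 for Cdc25c and −0.14 for Foxm1. Foxm1 ran from 825 to 1007 normalised counts in APOE3 and from 692 to 1029 in APOE2. Cdc25c had few counts, 50.7 ± 20.2 (SD, n = 8) and 73.4 ± 39.98 (SD, n = 5). Of these 7 genes 4 were above 0, their median was 0.12 and 0 were called. Counts of Ccnb1 are uncertain, because a run of 50 bases near the end of its transcripts is shared with 5 other genes, among them the pseudogene Ccnb1-ps.

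Kinetochore and centromere genes were all above 0, with 0 of 4 called and a median of 0.32. Cenpf, a large kinetochore protein whose level peaks in G2 and M, had 896, 773, 663, 729.6 and 458 normalised counts in APOE3 replicates 1 to 5. The APOE2 libraries ran from 776 through 874 to 973. APOE3 replicate 1 lay within the APOE2 range and the other 4 below it. Its log2 difference was 0.32 ± 0.14 (SE; limma adjusted p = 0.291), with 0.18 without APOE3 replicate 5 and 0.12 with the epithelial covariate. Cenpa, the histone H3 variant that marks the centromere, had 1261, 686, 818, 1113 and 1015 in APOE3 and 1049 to 1486 with a median of 1166 in APOE2. APOE3 replicates 2, 3 and 5 were again below all APOE2 libraries, and replicates 1 and 4 lay inside the APOE2 range. Its log2 difference was 0.32 ± 0.14 (SE; limma adjusted p = 0.296), with 0.20 without APOE3 replicate 2, 0.082 without APOE3 replicates 2 and 3, and 0.19 with the covariate. Kif2c, which depolymerises microtubules at wrong attachments, had 0.32 with a wider interval (−0.15 to 0.78), and the motor Cenpe 0.065.

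The chromosomal passenger complex, which corrects such attachments, was also above 0 in all 4 genes, with a median of 0.18 and 0 called. Birc5 (survivin) averaged 2575 ± 389.6 normalised counts in APOE2 (SD, n = 8) and 2360.4 ± 395 in APOE3 (SD, n = 5), a log2 difference of 0.13 ± 0.12 (SE; limma adjusted p = 0.669). It was 0.067 without APOE2 replicate 3, 0.051 without APOE3 replicate 3, 0.22 without APOE3 replicate 5, 0.020 without APOE3 replicates 2 and 3 and −0.10 with the covariate. The scaffold Incenp had 0.22 ± 0.14 (SE; limma adjusted p = 0.503), and a single high library in APOE2, replicate 3 at 1912, where the others ran from 1089 to 1459. Incenp was 0.14 without that library, 0.35 without APOE3 replicate 2 and −0.083 with the covariate. Aurkb, the kinase of the complex, had 0.43 with an interval from −0.19 to 1.06. It had 62.1 normalised counts in APOE3 replicate 2 and 170.4 to 420.3 in the other 4 libraries of that group. The anchor Cdca8 had 0.049.

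Of 8 spindle checkpoint and anaphase genes, 6 were above 0, the median was 0.15 and 0 were called. Ttk, the kinase at the head of the checkpoint, had 188, 210.2, 176, 103 and 176 normalised counts in APOE3 replicates 1 to 5 and 175 to 276 with a median of 215 in APOE2. The log2 difference was 0.37 ± 0.19 (SE; limma adjusted p = 0.386), with 0.20 without APOE3 replicate 4 and 0.17 with the covariate. Ube2c, the ubiquitin-conjugating enzyme of the anaphase-promoting complex, had 0.26 and ran from 1078 to 1949.6 in APOE3 and from 1531 to 2285 in APOE2. The checkpoint kinase Bub1 had 0.19, its pseudokinase relative Bub1b 0.14 and Cdc20 0.15. Bub3, which carries both to the kinetochore, had 3165 ± 419.9 normalised counts (SD, n = 8) and 3034 ± 327 (SD, n = 5), a log2 difference of 0.058 ± 0.11 (SE; limma adjusted p = 0.858). Mad2l1, the checkpoint inhibitor of CDC20, had −0.029, and Pttg1, the securin that guards sister chromatid cohesion, −0.11. Bub1 ran from 85.6 to 232 in APOE3 (SD 68.3) and from 149.8 to 191 in APOE2 (SD 15.1).

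In the group that acts last, at the central spindle and in cytokinesis, 3 of 5 genes were above 0, the median was 0.0058 and 0 were called. Kif20a, the motor that carries the passenger complex to the midzone, had 1090.3, 430.5, 598, 695 and 673 normalised counts in APOE3 replicates 1 to 5, and 749.8, 851.5 and 1142 as lowest, median and highest in APOE2. APOE3 replicate 1 lay near the top of the APOE2 range and the other 4 below all of it. The log2 difference was 0.40 ± 0.16 (SE), the limma adjusted p was 0.277, and without APOE3 replicate 1 it was 0.57 (limma adjusted p = 0.0460). Without APOE3 replicate 2 it was 0.24 (limma adjusted p = 0.522), without APOE3 replicates 2 and 3 it was 0.13, and with the epithelial covariate 0.081. Exons of Kif20a overlap those of Cdc23 on the other strand at the transcript ends, which leaves its count uncertain. The same holds for Ccna2 with Exosc9, Cdc20 with Elovl1, Ube2c with Tnnc2 and Prc1 with Rccd1. On the same strand, in the last 500 bases of either gene, Top2a overlaps Gm23451, and Ncapd2 overlaps Gm28967 and Scarna10. Foxm1 overlaps Gm44596 and Tex52 on the same strand outside those bases. These counts are uncertain too. A run of 50 bases near the transcript end is also shared with other genes for Bub3, Kif2c, Plk1, Tpx2, Hmmr, Mki67, Cenpf, Kif11, Ube2c and Prc1, so reads of these may be split or dropped. Prc1, which bundles the midzone microtubules, had 1196 ± 149 (SD, n = 8) and 1190.2 ± 148 (SD, n = 5), a log2 difference of 0.0058 ± 0.117 (SE; limma adjusted p = 0.989). Kif23, another motor of the central spindle, had 0.050, the cleavage furrow scaffold Anln −0.0018, and Ect2, which activates RhoA at the furrow, −0.11.

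Chromosome condensation genes gave a median of 0.017, with 3 of 5 above 0 and 0 called. Top2a, which untangles sister DNA, had 4696, 6114, 4052, 3784 and 4752 normalised counts in APOE3 replicates 1 to 5 and 3638, 4782 and 5655 as lowest, median and highest in APOE2. The means were 4710.0 ± 658 (SD, n = 8) and 4679.6 ± 902 (SD, n = 5), a log2 difference of 0.017 ± 0.12 (SE; limma adjusted p = 0.970) and an interval from −0.24 to 0.27. Mki67, the proliferation antigen that coats mitotic chromosomes, ran from 414 to 664 in APOE2 and from 418 to 725 in APOE3, with a log2 difference of −0.10 and an interval from −0.41 to 0.21. The condensin subunits gave 0.19 ± 0.11 (SE) for Smc2 (limma adjusted p = 0.469), 0.21 for Smc4 and −0.074 for Ncapd2. The genes most used as marks of proliferation, Mki67 and Top2a, therefore had intervals on both sides of 0. So did every other gene of the set except Nusap1, Cdk1, Kif20a, Cenpf and Cenpa.

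Library by library, the 40 genes summed to 4128 to 6047 of 1000000 normalised counts in APOE2 and 4281 to 5524 in APOE3, with means of 5073 ± 565 (SD, n = 8) and 4761 ± 516 (SD, n = 5). The ranges overlapped almost wholly. APOE2 replicate 3 had the highest sum, the highest value for 17 of the 40 genes and the lowest for 0. APOE3 replicate 2 had the lowest value for 14 genes, and APOE3 replicate 3 for 8. APOE2 replicate 1 had the smallest sum, 4128, and APOE3 replicate 1, at 5524, had the second largest. APOE3 replicate 2 was uneven, since it also had the highest value of 4 genes, among them Top2a and Mki67.

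Other measures of the same libraries are given beside this order. APOE2 replicate 3 had the lowest sum of lung epithelium markers, 96.2 of 1000000, and APOE3 replicate 1, the highest of its group for the mitotic sum, had the lowest epithelial sum of its group, 440.4. APOE2 replicate 1, lowest in the mitotic sum, had an epithelial sum of 451, close to that of APOE2 replicate 6 (439), whose mitotic sum was 5460.0. APOE3 replicates 2 and 3 had the largest share of the rRNA-like transcript Gm42418, 3.74% and 3.03% of reads, where the other 11 libraries had 0.662% to 2.17%. The part of these measures in the mitotic values was not tested, and the covariate fit given above cannot part it from host genotype. Without APOE2 replicate 3 the median log2 fold change of the set was 0.065 and 27 genes were above 0, and without APOE3 replicate 1 they were 0.17 and 33, with Nusap1, Cdk1 and Kif20a called.

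**Figure D4:**
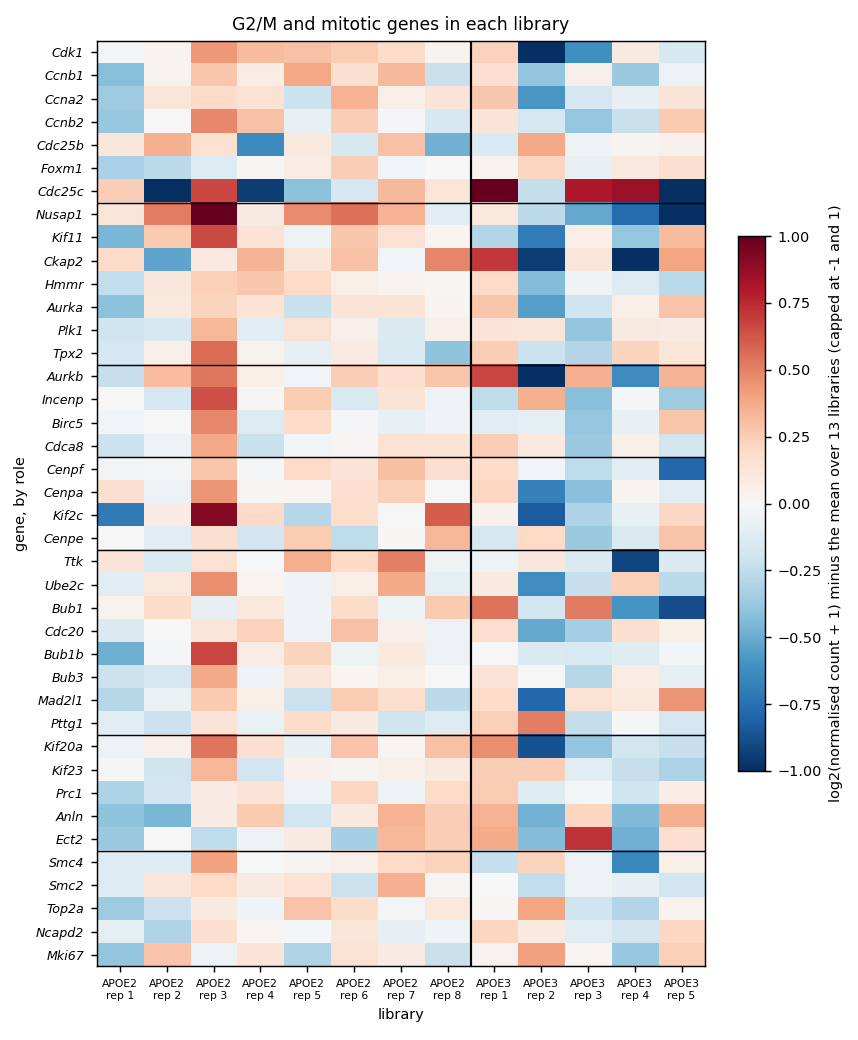
Each gene in each library as log2(normalised count + 1) minus its mean over the 13 libraries, grouped by role in the order of the fold change plot. The column of APOE2 replicate 3 is red for most genes, and that of APOE3 replicate 2 is blue for many genes and red for others such as Top2a, Mki67 and Pttg1.

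**Figure D5:**
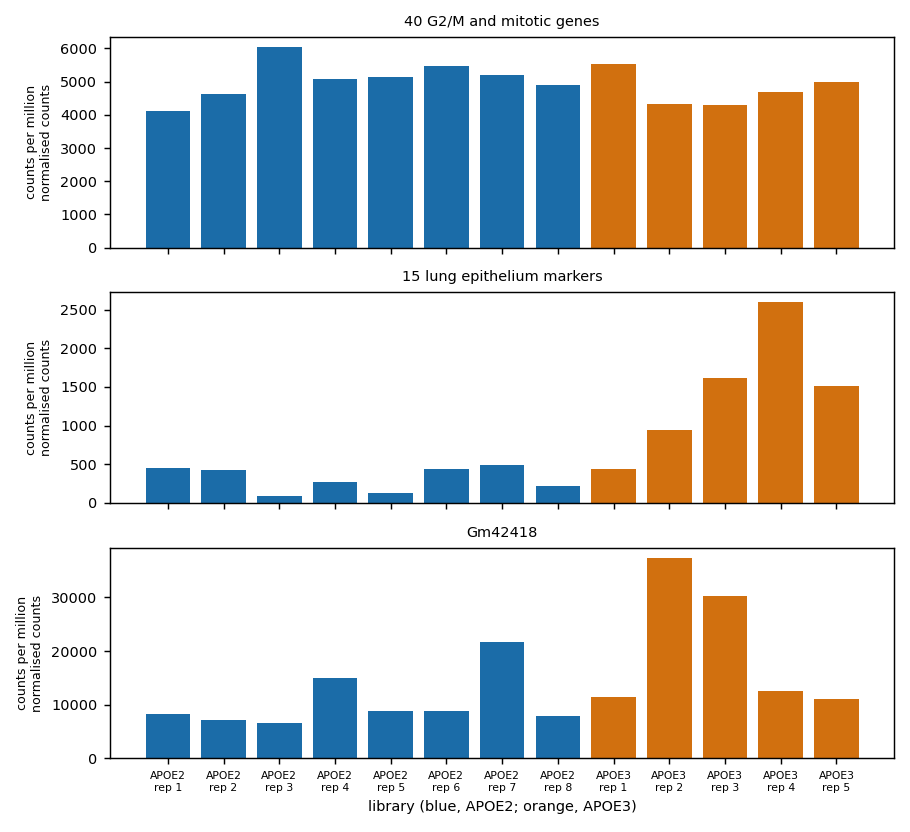
Sum of the 40 mitotic genes, of the 15 lung epithelium markers and of Gm42418 in each library, per 1000000 normalised counts, with bars from 0. Mitotic sums overlap between the groups (4128 to 6047 and 4281 to 5524), whereas epithelial sums reach 497 in APOE2 and 2596 in APOE3.

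Other genes of the pathway were read from 6 lists with 142 genes, of which 141 could be tested. In limma 0 of them were called in either direction, 13 were higher and 7 lower at an unadjusted p under 0.05, and 74 were above 0 and 67 below. Over all genes tested 7.51% were higher and 6.71% lower at that unadjusted limma p, and 50.1% were above 0. The 35 other kinetochore and centromere genes had a median log2 fold change of 0.19 with 24 above 0. Sgo1, shugoshin, which protects centromeric cohesion, averaged 416 ± 122 normalised counts in APOE2 (SD, n = 8) and 252 ± 49.3 in APOE3 (SD, n = 5), a log2 difference of 0.69 (limma adjusted p = 0.0991). Mad1l1, the kinetochore platform for MAD2, had the smallest p-value among those below 0, at −0.52 (limma adjusted p = 0.196). Among the 42 other spindle, motor and cytokinesis genes tested, 23 were above 0 and the median was 0.011. The smallest p-value above 0 was that of the mitotic kinase Pbk at 0.37 (limma adjusted p = 0.231), and the smallest below 0 that of the motor Kif18b at −1.12 (limma adjusted p = 0.357).

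The machinery that ends mitosis and holds chromatids was centred on 0. The 18 genes of the anaphase-promoting complex and its regulators had a median of 0.0016 with 9 above 0, and ran from Anapc2 at −0.37 to Anapc10 at 0.78 (limma adjusted p = 0.212). The smallest p-value below 0 was that of the subunit Anapc7, at −0.30 (limma adjusted p = 0.356). The 15 other condensin and cohesin genes had a median of −0.015 with 6 above 0, with Stag1 at 0.15 and Pds5a at −0.23. The 18 DREAM, MuvB and NF-Y regulators had a median of −0.037 with 8 above 0. Among these Rbbp4, a MuvB subunit, had 0.33 (limma adjusted p = 0.250), and Mybl2, which joins MuvB in late S and G2, had −0.57 (limma adjusted p = 0.398).

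The 13 genes that act as brakes on entry into mitosis had a median of −0.31, with 9 below 0 and 0 called. At an unadjusted limma p under 0.05 there were 4 below 0 and 0 above, beside 6.71% and 7.51% of all genes tested. Gadd45g, a stress-induced inhibitor of CDK1 and cyclin B, had 63.2, 164, 124, 161 and 128 normalised counts in APOE3 replicates 1 to 5, and 29.6 to 88.8 in APOE2. APOE3 replicate 1 lay within the APOE2 range and the other 4 above it. Its log2 difference was −1.33 ± 0.33 (SE; limma adjusted p = 0.0520). The other 3, named after their values were seen, were Rprm (−2.99), Sfn (−1.21) and Cdkn1a (−0.47), with limma adjusted p-values from 0.0926 to 0.193. Rprm had 0 counts in APOE2 replicates 3 and 4, and averaged 3.99 normalised counts in APOE2 and 37.7 in APOE3. Its APOE2 mean was below the minimum mean for testing, which Rprm passed over all libraries through its APOE3 counts. The size of the Rprm difference therefore depends on the pseudocount added to each value. Cdkn1a, the p21 inhibitor of cyclin-dependent kinases, ran from 1719 to 2845 in APOE2 and from 2256 to 5469 in APOE3, highest in APOE3 replicate 4. That library also had the highest epithelial marker sum, and Sfn is known as an epithelial gene. The part of epithelial RNA in these 4 values was not tested. Wee1, the kinase that inhibits CDK1, had the smallest p-value above 0, at 0.25 (limma adjusted p = 0.675).

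For comparison, 35 genes of G1/S and DNA replication, the phase before, had a median of 0.032 with 22 above 0. In limma 0 were called, and at an unadjusted p under 0.05 there were 4 higher and 2 lower. The shares over all genes tested were 7.51% and 6.71%. The smallest p-value above 0 was that of the flap nuclease Fen1 at 0.46 (limma adjusted p = 0.252), and the smallest below 0 that of the replication clamp Pcna at −0.35 (limma adjusted p = 0.215). The difference between the 2 sets was not tested.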

How the data were processed

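Per the submitters' processing notes, reads were handled with STAR 2.6.0, featureCounts and DESeq2 1.28.1 on mm10. The annotation and strand setting are not given in the sources used here. Libraries were made with a kit that reads the end of polyadenylated transcripts, and levels of different genes are not ranked. As the values show, the authors deposited read counts divided by a factor per library, a signal of at least 0 for each gene. In each column 100% of values were whole multiples of 1 step (tolerance 0.01 reads), which gave back the reads. Identifiers were paired with GENCODE M21 symbols (22649 of 22656).

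Values were analysed as log2(value + 1) with limma 3.58.1 (R 4.3.3, intensity trend, two-sided) over 12403 genes with a mean of at least 10. Fold changes understate low genes. Replicates are 1 library each, and p-values measure the spread between libraries. The genes and lists were chosen with earlier results of these data known. Every gene of the set is reported, with full statistics for the called gene and for the smallest p and highest mean in each role, and, in each other list, the smallest p in each direction. Alternatives were other pseudocounts, scalings, filters and variance models, a replicate block, an epithelial marker covariate, each library left out, and edgeR 4.0.16 and DESeq2 1.42.0 on recovered reads. The steps were tested on simulated data. The 7080308 to 13039989 reads of a library set the counting error, which is 1 part of that spread.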

Additional observations from a re-analysis of the deposited data

Results flagged for a closer look

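In 80 screens of the 40 genes in each group for a library far from its neighbours (Dixon's criterion), 3 values stood apart, where chance gives about 4. In APOE2 replicate 3, Incenp had 1912 normalised counts, with the other libraries at 1089 to 1459, and Tpx2 had 1021, with the others at 524 to 734. In APOE3 replicate 3, Plk1 had 1180.0 normalised counts, with the others at 1642 to 1700.2. APOE2 replicate 3 was also the library with the highest mitotic sum.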

How the results depend on the processing

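Among the mitotic genes 0 were called lower under every setting tried. The count called higher was 0 with no filter on low values, with limma without the trend, with the replicate block, with the epithelial covariate and without APOE3 replicates 2 and 3 (a choice made after seeing the data), and 0 to 3 when 1 library was left out. In the first 5 of these limma fits the counts higher at an unadjusted p under 0.05 were 5, 4, 2, 0 and 4. Nusap1 was called in the remaining settings, edgeR and DESeq2 included. The set's median log2 difference was −0.11 with the epithelial covariate and 0.065 to 0.18 with 1 library left out. The 51 genes higher became 5 with no filter, 0 without the trend, 17 with the replicate block, 153 in DESeq2, 0 with the covariate, 1 without APOE3 replicates 2 and 3, and 5 to 131 with 1 library left out. The 47 lower became 73 with pseudocount 5, 4 with no filter, 0 without the trend, 26 with the block, 77 in edgeR, 158 in DESeq2, 0 with the covariate, 0 without APOE3 replicates 2 and 3, and 4 to 97 with 1 library left out. The cause was not tested.

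Replicate numbers did not pair the libraries, as deviations of same-numbered libraries correlated across genes at −0.063 to 0.014. Of the 40 genes, 15 changed sign between fits that left out 1 library, among them Aurkb, Ect2, Kif23, Cdca8, Cenpe, Aurka and Tpx2. The other settings were followed for 13 genes, of which 6, none of them called, changed sign under at least 1 setting. Prc1 was −0.035 with equal totals, −0.046 with array weights, −0.064 with the replicate block, −0.22 with the covariate and −0.040 without APOE3 replicates 2 and 3. Top2a was −0.024 with equal totals, −0.034 with the replicate block and −0.30 with the covariate. Plk1 was 0.011 with TMM and 0.035 with array weights. Bub3 was −0.23 with the covariate and −0.012 without APOE3 replicates 2 and 3. With the covariate Incenp was −0.083 and Birc5 −0.10. With 1 library left out, Plk1 ran from −0.11 to 0.022, Prc1 from −0.043 to 0.069, Top2a from −0.055 to 0.12 and Bub3 from −0.0042 to 0.098. With 5 APOE3 libraries, differences as small as the set's median were not detectable for single genes.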
